A study of Arabidopsis thaliana with 6 samples.

Results

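The chloroplast genome of Arabidopsis thaliana keeps the genes for the core of its own RNA polymerase, for part of its ribosome and for a few proteins of other pathways. The genes described here are those of the plastid genome whose symbol does not begin with psa, psb, pet, atp, ndh or rbcL, the symbols of photosynthesis and of the plastid NDH complex. The rule used gene names and chromosome only, and no measured value. It selected 26 genes, each with 1 probe set that the platform annotation pairs with a single gene, among 69 such plastid genes and 13286 genes of the whole array that matched the gene table. They comprised 4 subunits of RNA polymerase, 7 proteins of the large and 8 of the small ribosomal subunit, matK, clpP, accD, and 4 genes named for assembly or envelope proteins, ycf3, ycf4, cemA and ccsA. Probe sets shared by both copies of an inverted repeat gene (rps12, rpl2, rpl23, ycf2, rps7 and ycf1) carry several gene IDs and are no members.

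Whole plants of the ceh1 mutant and of its parent line, labelled as the wild type of the comparison, were grown for 2 weeks on plates in cycles of 8 h of light and 16 h of darkness at 23 °C, and 3 biological replicates per genotype were each hybridised to 1 Affymetrix array. The labels also give 2 days of cold at 4 °C for every sample. About 20 plants were collected for RNA, and the labels do not say whether that number refers to each replicate. The gene mutated in ceh1 is known as HDS and encodes an enzyme of the plastid methylerythritol phosphate pathway, and the parent line is known from work on the mutant to carry a luciferase reporter, which ceh1 then carries too, although the labels do not state this. The comparison asks how transcript levels of the mutant differ from those of its parent.

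Plastid genes are transcribed by 2 kinds of RNA polymerase. The plastid-encoded polymerase resembles the bacterial enzyme and reads mainly photosynthesis genes, while a polymerase of the phage type, encoded in the nucleus, reads the operon of rpoB, rpoC1 and rpoC2, the gene accD and, beside the other enzyme, further genes such as clpP. Many plastid genes lie in operons and are transcribed together, so neighbouring probe sets can report on the same primary transcript. The labelling followed the standard Affymetrix protocol, which as generally carried out primes cDNA on poly(A) tails. Plastid transcripts carry such tails only in part, so the signals need not follow the whole pool of a transcript.

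Arrays differed in level before normalization, with trimmed mean intensities from 109.8 to 175.7. Parent replicates 1 and 2 were the most alike pair (Pearson r = 0.980 across probe sets), and parent replicate 3 stood further off, at 0.928 and 0.922. By comparison, ceh1 replicate 1 correlated with parent replicates 1 and 2 at 0.931 and 0.926. The 25S ribosomal RNA control, not normalised between arrays, was 1.95 higher in log2 in ceh1 than in the parent (two-sided exact permutation, p = 0.1). That p is the lower limit for 3 arrays a group. Every ceh1 array (10.14 to 12.17) lay above every parent array (8.20 to 9.94), and ceh1 replicate 2 was the brightest. For actin the log2 ratio of the 3′ over the 5′ probe set averaged 4.37 in the parent and 4.08 in ceh1, -0.29 apart (two-sided exact permutation, p = 0.1). For GAPDH this ratio averaged 0.59 in the parent and 0.61 in ceh1, 0.02 apart (two-sided exact permutation, p = 0.9). Of 16 leaf markers listed, 3 were measured (RCA, PRK and SBPASE), and their log2 fold changes ran from -0.79 to -0.22. Of 8 root markers listed, 2 were measured. PYK10 had signals from 8.62 to 9.83 in the parent and from 10.46 to 10.62 in ceh1, a log2 fold change of 1.21, and EXPA7 was too dim for the test. None of these markers passed, and their part in the values below was not tested.

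None of the 26 genes passed the test between ceh1 and the parent, and most log2 fold changes were small and below 0. All 26 genes were bright enough for the test, and 22 of them had a log2 fold change below 0, against 53.3% of all 15922 probe sets tested. Their median log2 fold change was -0.27, while the median over all probe sets tested was -0.03. At an adjusted p under 0.05 (limma), 0 of the 26 genes were called, against 3.77% of all probe sets, and at an unadjusted p under 0.05 there were 4, rps16, accD, rpoB and rpoC2, all lower in ceh1. That share of 15.4% compares with 20.9% of all probe sets in either direction and 11.5% lower, and is near that background. In 8 genes every ceh1 array lay below every parent array, which is 30.8% of the genes, against 15.1% of all probe sets, and 0 genes had the opposite pattern, against 12.4%. In whole plants, fewer cells or plastids and less RNA in each cannot be told apart.

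With quantile normalization, the intervals bound the size of these differences. Of the 26 genes, 23 had a log2 fold change smaller than 0.5 in size, and for 22 the 95% interval of limma excluded a 2-fold change in either direction. The interval reached below 50% of the parent level for the other 4, rps14, rps16, rps15 and rpl14, and reached a 2-fold rise for 0 genes. The standard error had a median of 0.17, below the 0.24 of all probe sets tested. A gene with that error would have needed a log2 fold change of 0.78 to pass, and the needed change ran from 0.55 for matK to 2.09 for rps14. These intervals and errors are those of quantile normalised values. The median standard error of the 26 genes was 0.33 without normalization between arrays and 0.19 with median scaling, and intervals were not counted there. A signal here is a normalised log2 intensity, and signals of different probe sets are not comparable with each other.

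**Figure D1:**
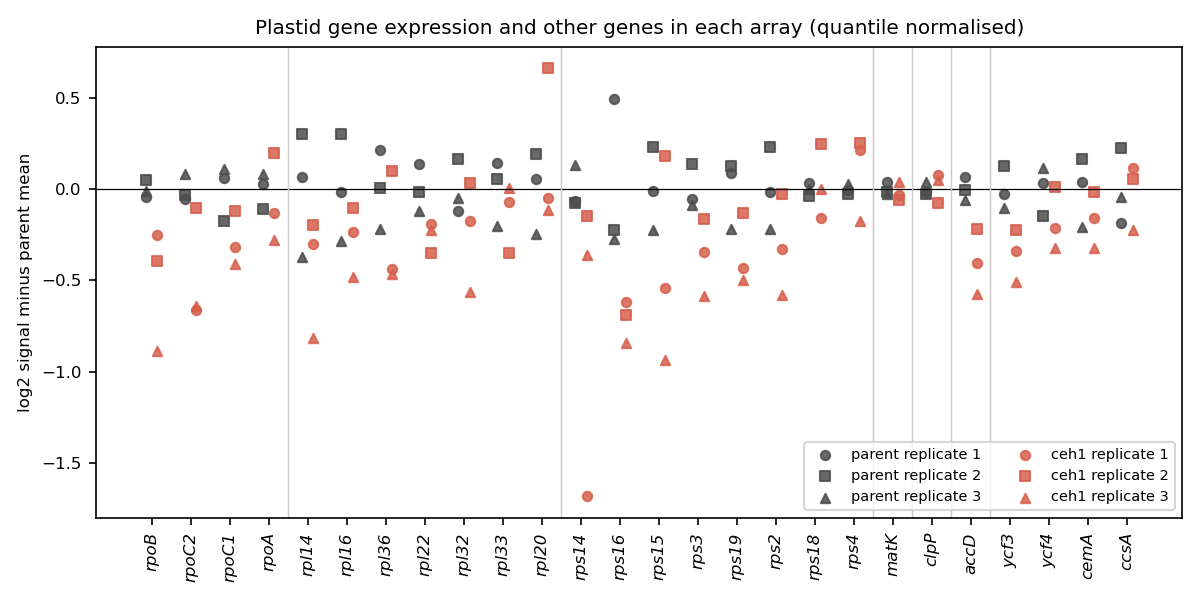
Normalised log2 signal of each of the 26 genes in each array, minus the mean of the 3 parent arrays, on the vertical axis, with genes grouped by role along the horizontal axis. Grey symbols stand for parent arrays and red symbols for ceh1 arrays, and most red symbols lie below 0, with ceh1 replicate 1 of rps14 furthest down and ceh1 replicate 2 of rpl20 furthest up.

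The 4 polymerase genes had log2 fold changes from -0.51 to -0.07, with a median of -0.37. The gene rpoB (ArthCp014) encodes the beta subunit, which with the beta′ subunit forms the catalytic centre. Its log2 signals, in the order of replicates 1, 2 and 3 as in all later sentences, were 6.93, 7.02 and 6.96 on parent arrays against 6.72, 6.58 and 6.08 on ceh1 arrays. The parent arrays lay close together and all 3 ceh1 arrays were below them, ceh1 replicate 3 by most. This was a log2 fold change of -0.51 ± 0.20 (SE), or 70.2% of the parent level with a 95% interval from 50.4% to 97.7% (limma, adjusted p = 0.214). It was -0.32 without ceh1 replicate 3 and -0.25 without normalization between arrays.

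The neighbours rpoC1 (ArthCp013) and rpoC2 (ArthCp012) encode the beta′ and beta″ subunits and are transcribed with rpoB. For rpoC2 the signals were 9.61, 9.64 and 9.75 on parent arrays against 9.01, 9.56 and 9.03 on ceh1 arrays. Replicates 1 and 3 of ceh1 were well below the parent, while replicate 2 came just short of the lowest parent array. The log2 fold change was -0.47 ± 0.19 (SE) (limma, adjusted p = 0.225). For rpoC1 the signals were 10.57, 10.33 and 10.62 on parent arrays against 10.19, 10.39 and 10.10 on ceh1 arrays. Here ceh1 replicate 2 lay above parent replicate 2, so the groups overlapped, with a log2 fold change of -0.28 ± 0.16 (SE) (limma, adjusted p = 0.362).

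The gene rpoA (ArthCp055), for the alpha subunit that starts polymerase assembly in bacteria, lies elsewhere, at the end of a ribosomal protein operon. Its signals were 10.77, 10.63 and 10.82 on parent arrays against 10.61, 10.94 and 10.46 on ceh1 arrays. The ceh1 arrays spread on both sides of the parent arrays. The log2 fold change of -0.07 ± 0.17 (SE) turned to 0.04 without normalization between arrays (limma, adjusted p = 0.855 and 0.967).

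**Figure D2:**
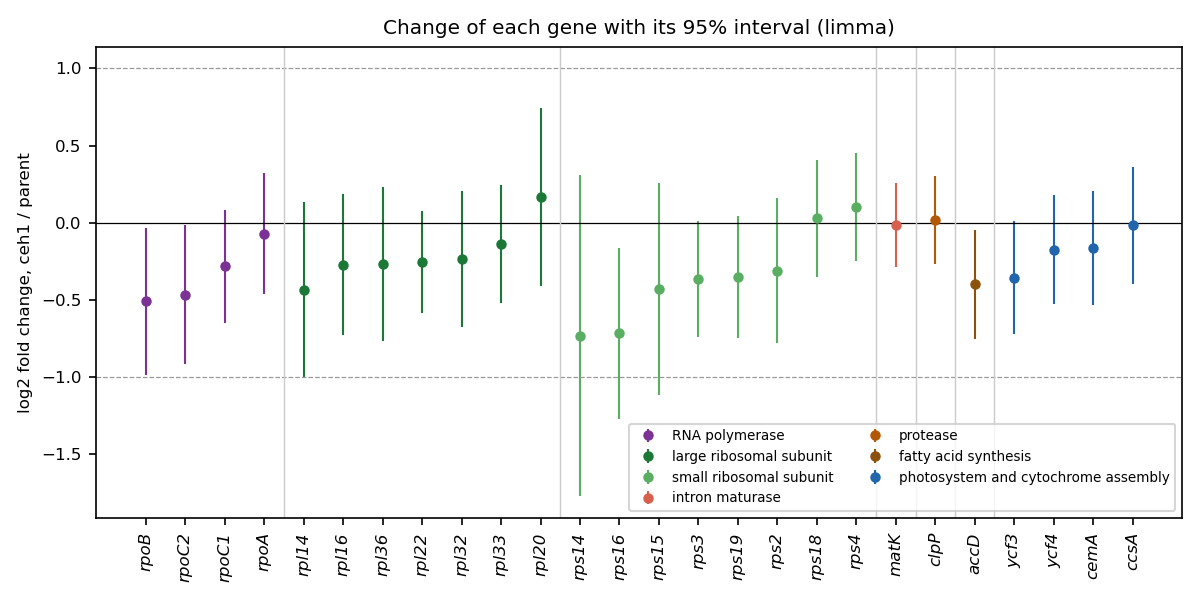
Log2 fold change of ceh1 over parent for each of the 26 genes, coloured by role, with bars for the 95% interval of limma and dashed lines at a 2-fold change either way. The intervals of rps16, accD, rpoB and rpoC2 lie wholly below 0, and those of rps14, rps16, rps15 and rpl14 reach past the lower dashed line.

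Among the 7 genes for large-subunit ribosomal proteins, 6 had log2 fold changes below 0, and the median was -0.25. The 3 with the most negative values were rpl14, rpl16 and rpl36, all of the operon that also holds rpoA. For rpl14 (ArthCp059) the signals were 9.58, 9.82 and 9.15 on parent arrays against 9.22, 9.32 and 8.70 on ceh1 arrays. Parent replicate 3 lay below ceh1 replicates 1 and 2, so the groups overlapped at a log2 fold change of -0.44 ± 0.24 (SE) (limma, adjusted p = 0.363). With 1 array left out it ran from -0.62 without parent replicate 3 to -0.25 without ceh1 replicate 3. For rpl16 (ArthCp060) they were 10.80, 11.12 and 10.53 on parent arrays against 10.58, 10.71 and 10.33 on ceh1 arrays. Again parent replicate 3 fell among the ceh1 arrays, at a log2 fold change of -0.27, or -0.12 without parent replicate 2. For rpl36 (ArthCp057), whose protein is dispensable for survival in tobacco, they were 9.77, 9.56 and 9.33 on parent arrays against 9.11, 9.65 and 9.08 on ceh1 arrays. Replicate 2 of ceh1 lay above parent replicates 2 and 3 here, and the log2 fold change was -0.27.

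The 3 with the highest values were rpl20, rpl33 and rpl32. The gene rpl20 (ArthCp045), essential in tobacco, had signals of 9.46, 9.60 and 9.16 on parent arrays against 9.36, 10.07 and 9.30 on ceh1 arrays. One array, ceh1 replicate 2, was above all others, and the log2 fold change of 0.17 ± 0.25 (SE) turned to -0.08 without that array (limma, adjusted p = 0.756). It was the only one of the 26 genes above 0 in all 4 scalings tried. The gene rpl33 (ArthCp043), which tobacco needs for growth in the cold, had 11.49, 11.41 and 11.15 on parent arrays against 11.28, 11.00 and 11.35 on ceh1 arrays, and the groups overlapped. The gene rpl32 (ArthCp072) had 11.11, 11.39 and 11.17 on parent arrays against 11.05, 11.26 and 10.66 on ceh1 arrays. Only ceh1 replicate 3 stood clearly lower there. Their log2 fold changes were -0.14 and -0.23, and without ceh1 replicate 3 that of rpl32 was -0.07. The remaining gene, rpl22, had no overlap between groups, with parent arrays from 10.81 to 11.07, ceh1 arrays from 10.59 to 10.75 and a log2 fold change of -0.25 ± 0.14 (SE) (limma, adjusted p = 0.362).

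Of the 8 genes for small-subunit proteins, 6 were below 0, with a median of -0.36 and a wider range, from -0.73 to 0.10. The gene rps16 (ArthCp004) had the lowest adjusted p of the 26. In Arabidopsis thaliana its intron is known not to be spliced, and nuclear genes supply the protein. Its signals were 8.60, 7.87 and 7.83 on parent arrays against 7.48, 7.41 and 7.26 on ceh1 arrays. All ceh1 arrays were below all parent arrays, but parent replicate 1 was well above the other two. The log2 fold change was -0.72 ± 0.24 (SE), or 60.8% of the parent level with a 95% interval from 41.4% to 89.3% (limma, adjusted p = 0.148). It was -0.47 without parent replicate 1, and also -0.47 without normalization between arrays, where the groups overlapped.

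The gene rps14 (ArthCp020), essential in tobacco, had the most negative log2 fold change, -0.73 ± 0.45 (SE), and the largest error (limma, adjusted p = 0.402). Its signals were 4.41, 4.40 and 4.61 on parent arrays against 2.79, 4.32 and 4.11 on ceh1 arrays. It was the dimmest of the 26 probe sets, and ceh1 replicate 1 alone gave most of the difference, which was -0.26 without that array. The gene rps15 (ArthCp081), dispensable in tobacco, had 8.74, 8.98 and 8.53 on parent arrays against 8.20, 8.93 and 7.81 on ceh1 arrays. Replicate 2 of ceh1 sat among the parent arrays while replicates 1 and 3 were below them, at a log2 fold change of -0.43 ± 0.29 (SE) (limma, adjusted p = 0.456). Without ceh1 replicate 2 it was -0.74.

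At the other end were rps4, rps18 and rps2. The gene rps4 (ArthCp024) encodes a protein whose bacterial counterpart binds ribosomal RNA early in assembly. Its signals were 12.29, 12.27 and 12.33 on parent arrays against 12.51, 12.55 and 12.13 on ceh1 arrays, so ceh1 arrays lay on both sides of a tight parent group. The log2 fold change was 0.10, and -0.23 with median scaling. The gene rps18 (ArthCp044) had 9.43, 9.36 and 9.40 on parent arrays against 9.24, 9.65 and 9.40 on ceh1 arrays, a log2 fold change of 0.03. The gene rps2 (ArthCp011), next to rpoC2, had 10.27, 10.52 and 10.07 on parent arrays against 9.96, 10.26 and 9.71 on ceh1 arrays. Its ceh1 replicates 1 and 3 were below all parent arrays and replicate 2 was not, at a log2 fold change of -0.31. The remaining genes rps3 and rps19 lie on either side of rpl22. Signals of rps3 ran from 11.30 to 11.53 in the parent and from 10.80 to 11.23 in ceh1 without overlap, and those of rps19 from 10.81 to 11.16 and from 10.53 to 10.90 with overlap. Their log2 fold changes were -0.36 ± 0.16 (SE) and -0.35 ± 0.17 (SE) (limma, adjusted p = 0.250 and 0.291).

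Splicing, proteolysis and fatty acid synthesis were represented by a single gene each. The maturase gene matK (ArthCp003), whose protein is needed to splice plastid introns of group II, had signals of 12.06, 12.00 and 11.99 on parent arrays against 11.99, 11.96 and 12.06 on ceh1 arrays. All arrays lay close together and the groups overlapped. Its log2 fold change of -0.02 had a 95% interval from 81.8% to 119% of the parent level (limma, adjusted p = 0.954). The gene clpP (ArthCp048), for the catalytic subunit of the plastid Clp protease, had 11.73, 11.72 and 11.79 on parent arrays against 11.82, 11.67 and 11.80 on ceh1 arrays. These groups overlapped as well, at 0.02 with an interval from 83.0% to 123% (limma, adjusted p = 0.957). Both values depended on the scaling, being -0.32 for matK and -0.23 for clpP with median scaling.

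The gene accD (ArthCp031) encodes a carboxyltransferase subunit of the plastid acetyl-CoA carboxylase, which makes malonyl-CoA for fatty acids. Its signals were 10.65, 10.58 and 10.53 on parent arrays against 10.18, 10.37 and 10.01 on ceh1 arrays. All ceh1 arrays were below all parent arrays. The log2 fold change was -0.40 ± 0.15 (SE), or 75.8% of the parent level with an interval from 59.3% to 96.9% (limma, adjusted p = 0.194). Over the alternatives its adjusted p ran from 0.0505 with array weights to 0.761 without normalization between arrays (limma).

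The remaining 4 genes act in the assembly of photosynthetic complexes or at the envelope, and their median was -0.17. The gene ycf3 (ArthCp023), for a photosystem I assembly factor, had signals of 9.52, 9.68 and 9.44 on parent arrays against 9.21, 9.32 and 9.04 on ceh1 arrays. Its groups did not overlap, with a log2 fold change of -0.36 ± 0.16 (SE) (limma, adjusted p = 0.253). The gene ycf4 (ArthCp033), for another such factor, had 11.48, 11.30 and 11.56 on parent arrays against 11.24, 11.46 and 11.13 on ceh1 arrays. The adjacent cemA (ArthCp034), for a protein of the envelope membrane, had 11.36, 11.49 and 11.12 on parent arrays against 11.17, 11.31 and 11.00 on ceh1 arrays. In both, the groups overlapped, at log2 fold changes of -0.17 for each (limma, adjusted p = 0.568 and 0.613). The gene ccsA (ArthCp073), whose protein helps to attach haem to c-type cytochromes, had 11.99, 12.40 and 12.13 on parent arrays against 12.29, 12.23 and 11.95 on ceh1 arrays. The groups overlapped and the log2 fold change was -0.02 with quantile normalization and -0.34 with median scaling.

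**Figure D3:**
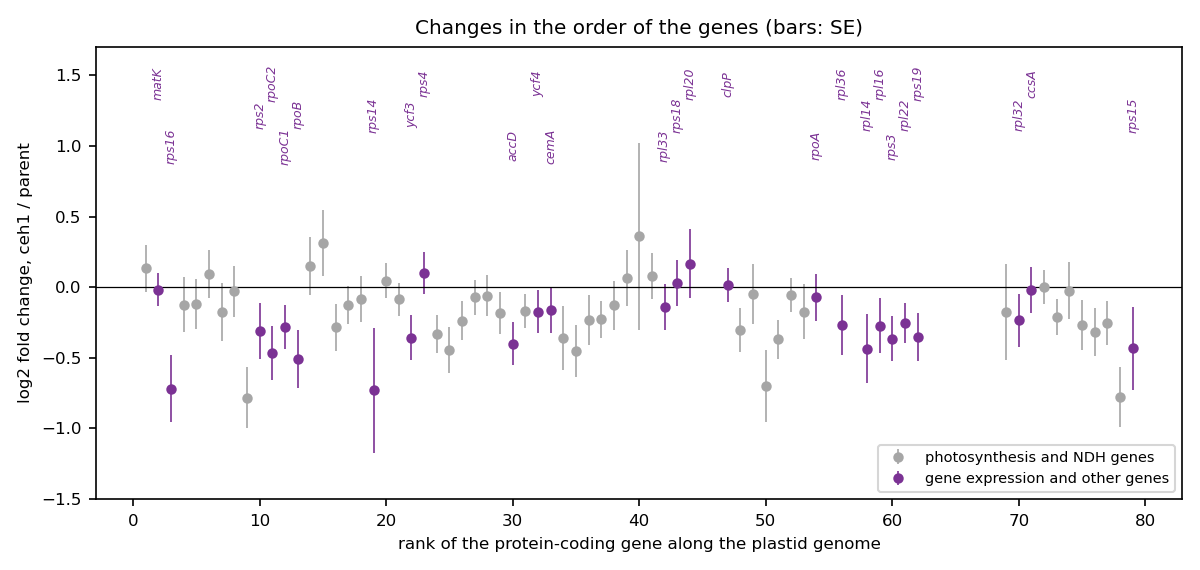
Log2 fold change of ceh1 over parent, with bars for the SE, against the rank of each protein-coding gene along the plastid genome. Purple points are the 26 genes, named above their points, and grey points are the photosynthesis and NDH genes. The stretch from rps2 to rpoB and that from rpl14 to rps19 lie wholly below 0, and that from rpl33 to rpl20 lies around 0.

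In the order of genes along the plastid genome, taken from the TAIR10.1 gene table, some neighbours had similar values and others did not. The stretches named here were chosen after the values were seen. The 4 genes rps2, rpoC2, rpoC1 and rpoB are adjacent and had log2 fold changes from -0.51 to -0.28. The 5 adjacent genes rpl14, rpl16, rps3, rpl22 and rps19 had values from -0.44 to -0.25. The adjacent rpl33, rps18 and rpl20 had -0.14, 0.03 and 0.17. In contrast, the adjacent matK and rps16 had -0.02 and -0.72, and the adjacent ycf3 and rps4 had -0.36 and 0.10. Since neighbours can share a transcript, these genes are not independent of each other, and the difference between the stretches was not tested. The medians of the first 2 stretches had the same order of ceh1 arrays, with replicate 2 highest and replicate 3 lowest. The median over all 26 genes had that order too. Single genes differed from it, since ceh1 replicate 2 was the lowest ceh1 array in rpl22 and replicate 1 the highest in rpoB. Relative to the parent mean, the median over the 4 genes was -0.32, -0.11 and -0.61 in ceh1 replicates 1, 2 and 3, and over the 5 genes it was -0.30, -0.16 and -0.50.

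The order of the ceh1 arrays was shared by most of the genes. In 19 of 26 genes ceh1 replicate 2 was the highest ceh1 array, and in 19 ceh1 replicate 3 was the lowest. With 1 array left out, the log2 fold change of 19 genes moved by over 1.5 times. That ratio also counts small moves of values near 0, such as that of matK, which ran from -0.046 to 0.003. The median over the 26 genes relative to the parent mean was -0.24, -0.09 and -0.44 in ceh1 replicates 1, 2 and 3, and 0.03, 0.03 and -0.07 in parent replicates 1, 2 and 3. Without normalization between arrays that order differed, with -0.41, 0.16 and -0.18 in ceh1 replicates 1, 2 and 3, so that replicate 1 was lowest. For the ribosomal proteins of the large subunit, parent replicate 3 (-0.22) was lower than ceh1 replicates 1 and 2 (-0.19 and -0.10). Without ceh1 replicate 3 the median log2 fold change of the 26 genes was -0.18, without ceh1 replicate 2 it was -0.37, and without parent replicate 3 it was -0.35. The array ceh1 replicate 2, where plastid transcripts came nearest to the parent, also had the brightest 25S ribosomal RNA signal, and whether the 2 are linked was not tested.

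**Figure D4:**
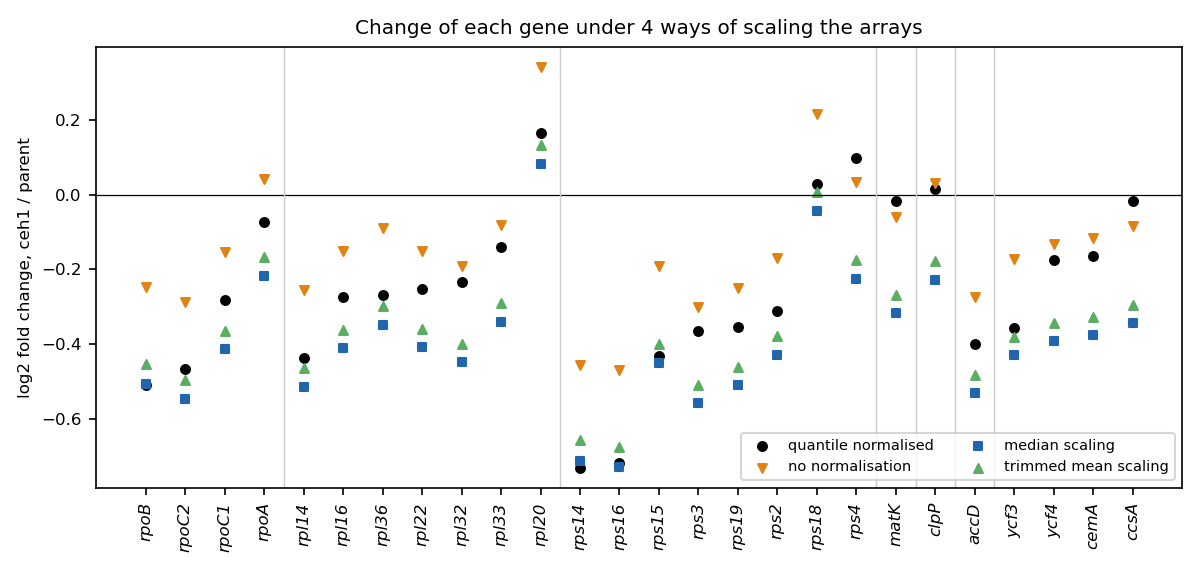
Log2 fold change of each of the 26 genes under 4 ways of bringing the arrays to a common level, with genes grouped by role. In 21 genes all 4 values lie below 0. The values with median scaling are the lowest or close to it, and those without normalization are mostly the highest.

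How the arrays were brought to a common level moved the whole group. With median scaling 25 of the 26 genes were below 0, against 54.8% of all probe sets, with a median log2 fold change of -0.41. The ceh1 arrays lay below all parent arrays in 13, against 16.1% of all probe sets. With trimmed mean scaling 24 were below 0, against 49.7%, with a median of -0.36. The ceh1 arrays then lay below all parent arrays in 12, against 13.4% of all probe sets. Without normalization the median was -0.15 with 21 genes below 0, against 31.6%, but the median of all probe sets then was 0.21, so that the genes lay 0.36 below it, and arrays overlapped in all 26 genes, while 4.11% of all probe sets had ceh1 arrays wholly below the parent. In each of these 3 settings 0 of the 26 genes passed (limma), where 4.28%, 3.97% and 4.51% of all probe sets were called. Of the 26 probe sets, 22 lay above the 90th percentile of signal, and for these median scaling gave lower values than quantile normalization. Among these the shift was -0.30 for matK, -0.32 for rps4 and -0.33 for ccsA, but -0.07 for rps18. For the dimmer rpoB it was 0.00. Whether brightness accounts for the shifts was not tested. In 21 genes the value was below 0 in all 4 scalings. The exceptions were rpl20, above 0 in all, and rpoA, rps4, rps18 and clpP, which turned sign.

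The 43 plastid genes for photosynthesis and the NDH complex had a median log2 fold change of -0.17, and 34, or 79.1%, were below 0, against 53.3% of all probe sets. None passed (limma), 7, or 16.3%, had an unadjusted p under 0.05, against 20.9%, and in 11, or 25.6%, the ceh1 arrays lay below all parent arrays, against 15.1%. The value furthest from 0 was that of atpI, a subunit of the ATP synthase next to rps2, at -0.78 ± 0.22 (SE) (limma, adjusted p = 0.0997). Weighting the arrays brought atpI past the threshold (limma, adjusted p = 0.0237), as did the replicate block (limma, adjusted p = 0.0438). With weighted arrays ndhH and psbH passed too (limma, adjusted p = 0.0177 and 0.0499), and ndhH passed without ceh1 replicate 2 (limma, adjusted p = 0.0404). Over all 15922 probe sets, 1815 passed with weighted arrays, 1160 with the replicate block and 301 without ceh1 replicate 2 (limma). With median scaling the medians of the 2 groups of plastid genes were -0.41 and -0.38, and their difference was not tested. The 7 probe sets of inverted repeat genes had log2 fold changes from -0.45 for ycf1 and -0.44 for ycf2 to 0.17 for rpl2, with a median of 0.06 that turned to -0.27 with median scaling, -0.22 with trimmed mean scaling and -0.01 without normalization. None of them passed (limma), and 1, ycf2, or 14.3%, had an unadjusted p under 0.05, against 20.9% of all probe sets. The ceh1 arrays lay below all parent arrays in 2, or 28.6%, against 15.1%. They lay above all parent arrays in 1, rpl2, or 14.3%, against 12.4%.

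Nuclear genes that work with these plastid genes were measured only in part. Of 100 such genes in 10 lists, 21 had a single-gene probe set and were tested, and 0 passed, against 3.77% of all probe sets (limma). An unadjusted p under 0.05 was found for 7, or 33.3%, against 20.9% of all probe sets (limma). Log2 fold changes were below 0 in 19, or 90.5%, against 53.3%, with a median of -0.32. In 13 of the 21, or 61.9%, the ceh1 arrays lay below all parent arrays, against 15.1%. With median scaling all 21 were below 0, against 54.8% of all probe sets, with a median of -0.44. There 1 of the 21 passed, as lower, against 4.28% of all probe sets in either direction (limma). Without normalization 16, or 76.2%, were below 0, against 31.6%, with a median of -0.18. Of the 21, 0 then had an unadjusted p under 0.05, against 14.1% of all probe sets (limma). The ceh1 arrays lay below all parent arrays in 2, or 9.5%, against 4.11%. Sigma factors, polymerase-associated proteins, the nuclear subunits of acetyl-CoA carboxylase and the import and ycf2 partners had no single-gene probe set in the annotation used and are not analysed here.

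The nuclear list for the large subunit of the plastid ribosome had 7 of 24 genes tested, and that for the small subunit 3 of 13. All 7 tested for the large subunit had values below 0, with a median of -0.32. In all 7 the ceh1 arrays lay below all parent arrays, against 15.1% of all probe sets. AT4G17560, for a protein of the L19 family, had signals of 9.63, 9.78 and 9.74 on parent arrays against 9.15, 8.76 and 8.98 on ceh1 arrays. Its ceh1 arrays were all well below the parent, at a log2 fold change of -0.75 ± 0.16 (SE) (limma, adjusted p = 0.053). Of 3 for the small subunit, 2 were below 0, and AT1G64510 had the value furthest from 0, at -0.42 ± 0.15 (SE). In the plastid-encoded ribosomal genes ceh1 replicate 2 was mostly the highest ceh1 array, whereas for AT4G17560 it was the lowest. The tested nuclear ribosomal genes were mixed in this, since for others, such as AT4G01310 and AT1G64510, that array was the highest of ceh1.

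Partners of the other plastid genes were few. Among 5 tested nuclear genes of the Clp protease, 4 were below 0, with a median of -0.30, and AT1G68660, for the adaptor CLPS, was furthest, at -0.80 ± 0.24 (SE) (limma, adjusted p = 0.115). Among 3 partners of ycf3, ycf4 and ccsA all were below 0 without overlap, a pattern that 15.1% of all probe sets had. Of these 3, AT1G49380, for the protein that works with ccsA in haem attachment, was furthest, at -0.76 ± 0.30 (SE) (limma, adjusted p = 0.206). Both splicing factors tested were below 0, CAF1 being the further at -0.40 ± 0.24 (SE) (limma, adjusted p = 0.392). Of the phage-type polymerases 1 was tested, AT5G15700, which serves mitochondria and plastids. Its log2 fold change was -0.13 ± 0.33 (SE) (limma, adjusted p = 0.864).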

How the data were processed

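Whole-plant RNA of 3 parent and 3 ceh1 replicates was hybridised to 1-colour Affymetrix arrays. The deposited values are linear intensities per probe set, made by the authors with MAS5 according to the submitters' processing notes, with the version not given in the sources used here. Of 22810 probe sets, 64 controls were removed. An offset of 2 was added, values were converted to log2 and quantile normalised between arrays, and 15922 probe sets with a mean above the 30th percentile were tested with limma 3.58.1 in R 4.3.3 (lmFit and eBayes with a trend, Benjamini-Hochberg adjustment over all of them, threshold 0.05). Fold changes are on this log2(intensity + 2) scale. The procedure was tested on simulated data. The number of arrays limits the precision, and p-values measure the spread between samples labelled as biological replicates.

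Probe sets were named through GEO's platform annotation, which gave 1 gene for 13513, several for 503 and none for 8730, and 13436 of the first matched the TAIR10.1 gene table. The members and gene lists were chosen with earlier results of these data known. Every gene was accounted for by role. Array values were given for all genes other than ribosomal protein genes, and for the 3 highest and 3 lowest fold changes in each ribosomal subunit. Of each nuclear list, the gene with the value furthest from 0 was named, with any that passed. The count of intervals and of small changes and the control probe sets were added after values had been seen. Alternatives were the offset, the filter, the scaling, the moderation, array weights, a replicate block, each array left out and, added after seeing the data, the probe sets of inverted repeat genes. Samples were not paired by replicate number in the main test. Deviations of same-numbered arrays correlated at 0.27, 0.06 and 0.47, and those of other parent and ceh1 arrays at -0.40 to 0.34. Whether the numbers pair the samples was not tested.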

Additional observations from a re-analysis of the deposited data

How the results depend on the processing

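The count of 0 changed genes among the 26 held under all 17 other settings and with the probe sets of inverted repeat genes added, and the lowest adjusted p of any gene was 0.0505, for accD with array weights (limma). Their median log2 fold change, -0.27, stayed below 0 throughout, at -0.15 without normalization between arrays, -0.41 with median scaling and -0.37 to -0.18 with 1 array left out. Of 441 values of single genes under an alternative, 16 turned sign, in ccsA, clpP, matK, rpl20, rpoA, rps18 and rps4, none of which had passed. Over all probe sets, 600 passed (417 higher and 183 lower), against 384 where the filter was raised to the 50th percentile, 1815 where arrays were weighted (935 higher and 880 lower), 1160 with the replicate block (677 higher and 483 lower) and 718 without normalization (657 higher and 61 lower). With 1 array left out the count ran from 152 without parent replicate 2 to 681 without parent replicate 3, and it was 169 when parent replicate 1 was dropped, 301 when ceh1 replicate 2 was, and 173 when ceh1 replicate 3 was. The cause was not tested. With the replicate block the median of the 26 genes was -0.27 and 0 of them passed, and the numbers share no known pairing. Parent replicate 2 correlated best with ceh1 replicate 1 (0.34), and parent replicates 1 and 3 with the same-numbered ceh1 array (0.27 and 0.47). The 3 arrays per group and the dim signal of rps14 limit what can be detected, and differences below the sizes given for passing the test cannot be told from none.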
